A study of Homo sapiens with 10 samples.

Results

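The genes described here are 49 human genes grouped under G2 and mitosis. They cover the cyclin B kinase switch, the mitotic kinases, regulators of the anaphase-promoting complex, the spindle checkpoint and kinetochore proteins. Kinesin motors, spindle and midzone proteins, cytokinesis factors, chromosome structure proteins and ARL6IP1 complete the set. These genes were taken from a fixed list of symbols, and all 49 were found among the 59204 human genes of the tables. The list itself uses no measured value, but it was drawn up with earlier results of these data known. With a spike-in as the scale, the members' newly made RNA nearly vanished with the transcription inhibitor actinomycin D and with the CDK9 inhibitor AZ-5576. It fell for 12 members with the BET inhibitor JQ1, a proportion near that of all genes. With the CBP/p300 inhibitor A-485 it was called lower for none, against 4.86% of all genes tested. The members' total RNA moved far less in the same 2 h, and FBXO5 fell most in it.

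Entry into mitosis is driven by cyclin B bound to CDK1, which CDC25 phosphatases activate and which PLK1 and Aurora kinases amplify. The spindle checkpoint holds the anaphase-promoting complex in check until every kinetochore is attached, and CDC20 then directs that complex to securin and cyclin B. The mRNAs of these proteins peak together in G2 and mitosis. Their promoters are known for CCAAT boxes, bound by NF-Y, and for the cell cycle genes homology region (CHR), through which the MuvB complex acts with DREAM proteins as a repressor and with B-MYB and FOXM1 as an activator.

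K562 is an established chronic myeloid leukemia line that grows in suspension. Cells received DMSO (the solvent), actinomycin D at 1 µg/mL, AZ-5576 at 1 µM, JQ1 at 1 µM or A-485 at 1 µM for 2 h, with 2 libraries in each of the 5 groups. All 5 groups, DMSO included, had 4-thiouridine at 100 µM in the last 1 h. In this assay, SLAM-seq, reads with T-to-C conversions come from RNA made while the label was present and are called labelled below, and all human reads together are called total. No synchronisation of the cells is described in the labels, so each library mixes all phases of the cycle. In such bulk RNA, fewer cells in G2 and mitosis and less RNA per cell cannot be told apart. The labels do not say that libraries of a group came from separate cultures, so p-values measure only the spread between these libraries, which may be technical.

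Total human counts ran from 14916671 to 17918971 per library and spike-in counts from 1817677 to 2212752. The spike-in is Drosophila S2 RNA that was added after RNA had been purified. Counts were scaled to 1000000 spike-in counts, called normalised counts below, so they measure RNA against the purified amount and would miss a change in RNA per cell. DMSO replicate 2 had the fewest spike-in counts and the highest summed total RNA of the members, 40235 normalised counts against 34877 in DMSO replicate 1. Of 10 erythroid and megakaryocytic markers fixed for K562, none was at 0, and their summed total counts ran from 63101 to 81465. Markers of other lineages summed to 565 to 840 counts for 5 lymphoid genes, with MS4A1 at 0 in every library, to 285 to 355 for 5 myeloid genes, with MPO at 0, and to 983 to 1194 for 5 genes from outside the blood, with KRT5 at 0.

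The 5 promoters printed here stand for the patterns below: PLK1 and PRC1, whose labelled RNA fell with JQ1, CKS2 and ARL6IP1, which had the opposite sign, and FBXO5, whose total RNA ran down most. Each is the RefSeq window of GRCh38.p14 from 250 bases before to 50 bases after a gene start, printed 5′ to 3′ on the gene's strand. Capitals mark CCAAT, which reads ATTGG where it lies on the other strand. They also mark the core letters of the CHR, here TTTGAA and its variant with a central A, which is TTTAAA. The first of these reads TTCAAA on the other strand.
PLK1 (chr16:23678639-23678938, plus strand): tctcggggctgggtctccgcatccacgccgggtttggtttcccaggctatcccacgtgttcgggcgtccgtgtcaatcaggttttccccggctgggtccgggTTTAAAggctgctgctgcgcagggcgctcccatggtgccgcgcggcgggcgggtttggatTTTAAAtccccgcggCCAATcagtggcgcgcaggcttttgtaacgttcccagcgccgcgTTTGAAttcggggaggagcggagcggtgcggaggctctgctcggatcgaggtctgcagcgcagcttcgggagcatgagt
PRC1 (chr15:90994486-90994785, minus strand): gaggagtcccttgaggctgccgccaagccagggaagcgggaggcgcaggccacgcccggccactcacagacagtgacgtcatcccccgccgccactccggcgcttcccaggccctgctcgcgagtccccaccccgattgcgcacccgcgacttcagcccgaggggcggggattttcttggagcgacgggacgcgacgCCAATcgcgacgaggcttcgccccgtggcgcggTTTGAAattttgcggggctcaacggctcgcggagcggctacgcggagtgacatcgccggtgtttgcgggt
CKS2 (chr9:89310945-89311244, plus strand): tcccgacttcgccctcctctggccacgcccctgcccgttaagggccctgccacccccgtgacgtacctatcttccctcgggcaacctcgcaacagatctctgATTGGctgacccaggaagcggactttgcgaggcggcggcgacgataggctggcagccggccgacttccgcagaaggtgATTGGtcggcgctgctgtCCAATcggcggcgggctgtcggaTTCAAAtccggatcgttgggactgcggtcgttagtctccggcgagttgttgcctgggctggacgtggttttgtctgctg
ARL6IP1 (chr16:18801500-18801799, minus strand): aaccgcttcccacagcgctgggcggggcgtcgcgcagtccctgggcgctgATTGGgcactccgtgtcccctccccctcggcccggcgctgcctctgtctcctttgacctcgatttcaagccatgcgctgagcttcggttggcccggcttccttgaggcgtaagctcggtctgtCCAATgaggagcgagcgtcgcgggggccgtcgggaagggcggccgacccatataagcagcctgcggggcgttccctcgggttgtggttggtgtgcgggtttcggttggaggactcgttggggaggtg
FBXO5 (chr6:152982992-152983291, minus strand): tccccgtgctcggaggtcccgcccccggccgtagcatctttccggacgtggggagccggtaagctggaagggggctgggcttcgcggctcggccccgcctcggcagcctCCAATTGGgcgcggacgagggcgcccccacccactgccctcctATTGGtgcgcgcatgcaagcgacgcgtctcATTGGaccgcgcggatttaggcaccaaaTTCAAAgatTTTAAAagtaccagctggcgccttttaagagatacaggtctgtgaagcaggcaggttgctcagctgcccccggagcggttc

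PLK1 carried CCAAT at position -73 and TTTGAA at -29, counted from the gene start. PRC1 had the same pair of motifs at -53 and -20. CKS2, with the opposite sign under JQ1, also held both, with CCAAT at -52 and TTTGAA at -29. These motifs were thus present in all 3 genes. The ARL6IP1 window printed held 2 CCAAT motifs and no TTTGAA or TTTAAA. ARL6IP1 and FBXO5 each have a further window, at chr16:18801321-18801620 and chr6:152983530-152983829, which held none of these motifs. All motifs were searched on both strands, with overlaps between motifs kept, and the TATA box was searched as TATAAA. Of the 49 members, 43 had windows in the RefSeq table, and AURKA, BIRC5, BUB3, TPX2, TTK and UBE2C had none. CCAAT was in a window of 36 of the 43 members (83.7%) and in 39.7% of the 27305 genes of the table. TTTGAA or TTTAAA was in 38 of the 43 (88.4%) and in 27.9% of all genes. Both kinds in the same window were found for 31 members (72.1%) and for 11.2% of all genes, while the TATA box letters were found for 3 members (6.98%) and for 14.0%. Such a match is a description of letters and not of a bound factor.

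The labelled share is the percentage of a gene's total counts that carried T-to-C conversions. New reads without a conversion are not in it, so it is not the fraction of the mRNA made in the last 1 h and serves here to order genes within DMSO. The median over the 48 members with a mean of at least 50 total counts in DMSO was 4.59%, against 3.71% for all 10409 such genes. Of the 48, 28 lay above the median of all genes and 4 above their 90th percentile. The share was not corrected for the number of T bases in the sequenced 3′ end, so it is compared between genes only broadly.

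The highest share was that of FBXO5 (EMI1, an inhibitor of the anaphase-promoting complex), with 31.8 and 25.9% in the DMSO libraries. KIF23, a midzone kinesin needed for cytokinesis, followed with 18.5 and 23.0%. The cytokinesis pair ECT2, an exchange factor for RhoA, and ANLN (anillin) had 16.1 and 11.1% and 11.2 and 12.2%. NDC80, a microtubule-binding kinetochore protein, had 13.0 and 12.9%, and CKS2, a CDK-binding protein, 12.2 and 7.69%. These ran well above the median of all genes in both libraries. KIF18A, a motor that dampens chromosome movements, had 6.45 and 24.7%, on 4 and 22 labelled counts, so its libraries differed too much to rank it.

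The lowest share was that of CDC20, the mitotic activator of the anaphase-promoting complex, with 0.332 and 0.409% labelled. DLGAP5, a spindle protein, had 0.627 and 1.19% on 2 and 4 labelled counts. PTTG1 (securin) had 1.04 and 1.30%, CKS1B 1.38 and 0.983%, and AURKB 1.38 and 1.37%. Shares of the kinase switch itself lay between these extremes: 4.66 and 3.72% for CCNB1, 1.56 and 2.28% for CCNB2, 4.63 and 4.44% for CDK1 and 1.77 and 1.78% for PLK1. UBE2C, the ubiquitin-conjugating enzyme of the anaphase-promoting complex, was nearly absent from the tables, with 0 to 10.7 normalised total counts over the 10 libraries. It has 4 named pseudogenes in the annotation, and its values were not read further.

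**Figure D1:**
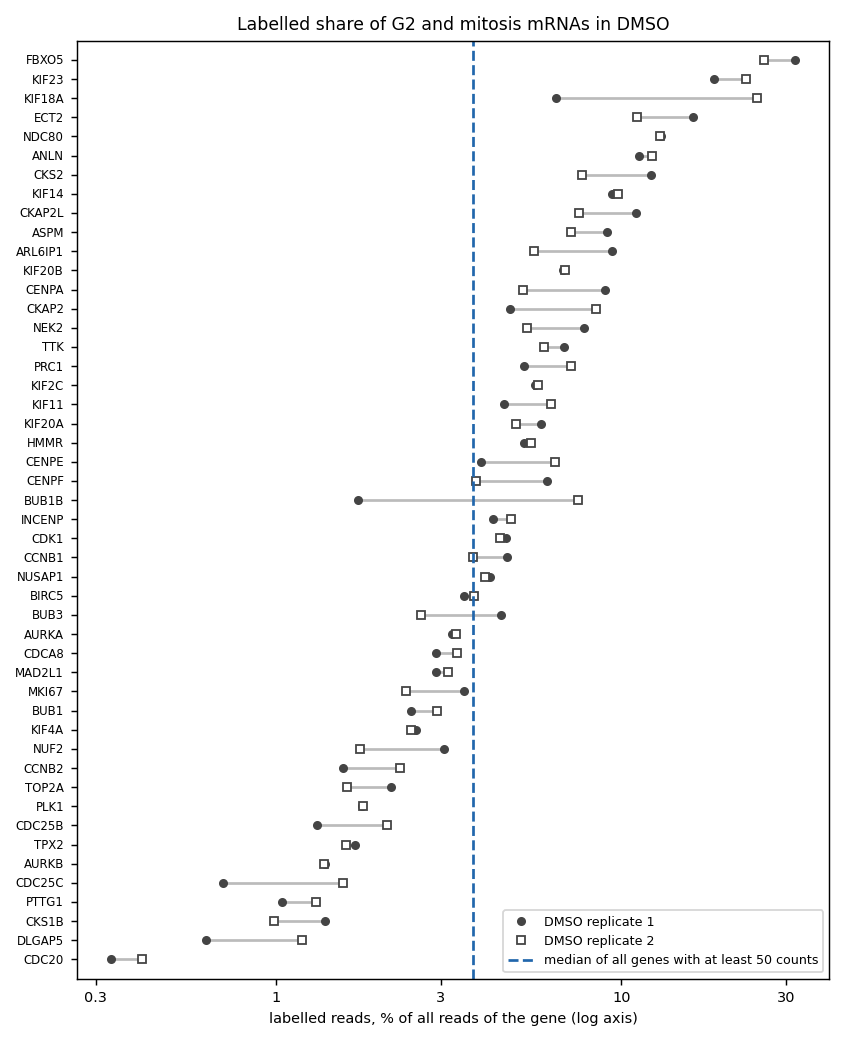
Labelled share (percent of each gene's reads, log axis) of 48 members in DMSO replicate 1 (filled circles) and replicate 2 (open squares), in order of the pooled share, with a dashed line at the median of all genes with at least 50 counts. FBXO5 lies at the top with 31.8 and 25.9% and CDC20 at the bottom with 0.332 and 0.409%.

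Actinomycin D, which blocks RNA polymerases on DNA, and AZ-5576, an inhibitor of the pause-release kinase CDK9, removed almost all labelled RNA of the members. Summed over members, the DMSO libraries had 1063 and 1152 normalised labelled counts. Actinomycin D left 2.98 and 2.30 and AZ-5576 58.5 and 43.7. That left 0.238 and 4.62% of the DMSO mean. All nuclear genes together kept 0.298 and 6.19%. Under actinomycin D, 45 of the 49 members had no labelled count in either library, which was not set against all genes. Those libraries held 1410 and 1614 labelled counts in all. The 45 include UBE2C, with 3 and 0 labelled counts in DMSO, and DLGAP5, with 2 and 4. The largest bound was for PLK1, which was at least 155-fold lower when its group was given a ceiling of 3 counts. CENPE, a kinetochore motor, kept 4 and 3 labelled counts against 7 and 13 in DMSO. It was the exception among the 47 members tested, with a log2 change of -1.69 (SE 0.95, edgeR adjusted p = 0.075). The other 46 were lower at an edgeR adjusted p under 0.05, as were 99.2% of the 7996 genes tested. UBE2C and DLGAP5 had too few labelled counts to be tested.

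Under AZ-5576, all 47 tested members were lower, against 94.7% of all genes tested. Of the 49 members, 22 had no labelled count in either library, again with UBE2C and DLGAP5 and not set against all genes. Among these 22 were CDC20, AURKB, TTK, KIF11, KIF14, KIF20A, MKI67, ANLN and HMMR. ANLN, with 45 and 49 labelled counts in DMSO, gave the largest bound, at least 32.8-fold lower. Some members kept more. ASPM, a spindle pole protein, had 21 and 17 labelled counts in DMSO and 3 and 6 under AZ-5576, or 22.3% of DMSO after scaling. ARL6IP1, which shapes the endoplasmic reticulum, kept 20.2% on 16 and 3 counts, and FBXO5 18.2% on 7 and 14. KIF4A kept 16.0%, CKS2 15.6% and PRC1 11.2%. At the other end BIRC5 (survivin) went from 94 and 106 counts to 1 and 0, and CDK1 from 106 and 115 to 0 and 4. CCNB1 had 4 and 8 counts left, CCNB2 3 and 0, AURKA 4 and 3, PLK1 18 and 7, TOP2A 4 and 3, and BUB3 12 and 0. The libraries under AZ-5576 differed from each other at these depths, so the order among retained members is loose.

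These falls are set by the spike-in. When libraries were instead scaled to their own labelled reads by the trimmed mean of M-values (TMM), the median of all genes moved by 1.03 on the log2 scale for actinomycin D and 2.83 for AZ-5576. Members called lower then numbered 2 and 17, with 1 higher under actinomycin D and 0 under AZ-5576, against 7.85% lower and 0.425% higher, and 27.6% lower and 5.89% higher, of all genes.

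**Figure D2:**
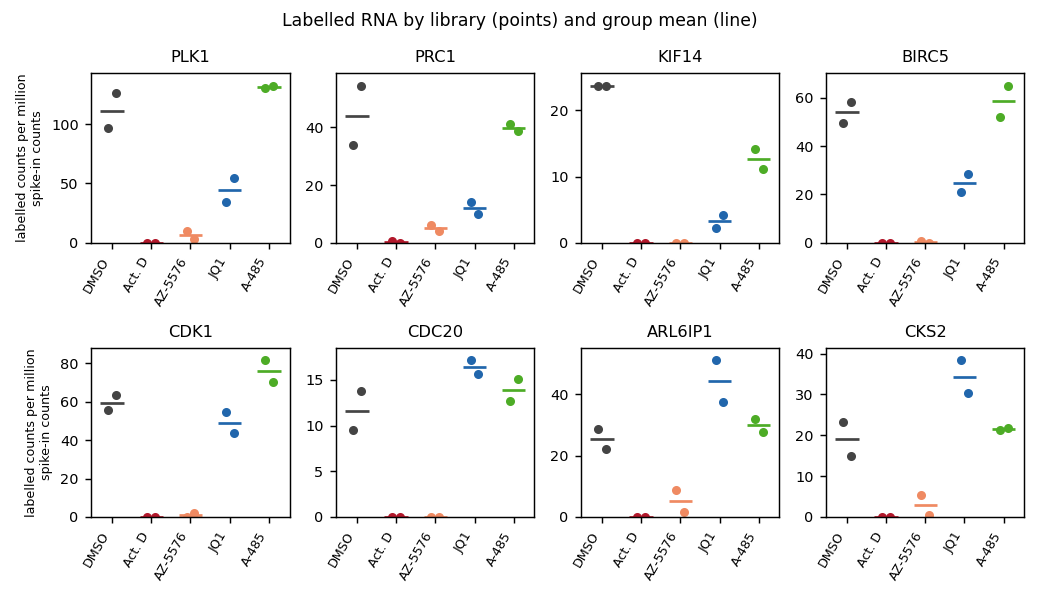
Normalised labelled counts (scaled to 1000000 spike-in counts) of 8 members in each library (points), with the mean of each group of 2 (lines), each panel starting at 0. PLK1, PRC1, KIF14 and BIRC5 have both JQ1 points below both DMSO points, and CDK1 does so without being called. CDC20, ARL6IP1 and CKS2 have both JQ1 points above both DMSO points, also without being called.

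JQ1 displaces BET proteins from acetylated chromatin. With it the members' summed labelled RNA was 821 and 757 normalised counts, below both DMSO libraries and 71.3% of their mean. Over all nuclear genes, 62.9% was left. At an edgeR adjusted p under 0.05, 12 of 47 tested members (25.5%) were lower and none was higher. DESeq2 called 8 lower and 0 higher, and 2 members had an unadjusted p under 0.05 on the higher side with either tool. Over all 7996 genes, 28.6% were lower and 1.26% higher, so the members' share of calls was near the background. Their median log2 change was -0.69, against -0.85 for all genes. The labelled counts given next are unscaled, and the JQ1 libraries held more spike-in counts, 2212752 and 2112838, than the DMSO libraries, 1895506 and 1817677.

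Among the mitotic kinases and the passenger complex, 3 of 7 fell with JQ1. PLK1, the Polo kinase that promotes mitotic entry, centrosome maturation and cytokinesis, had 183 and 230 labelled counts in DMSO and 76 and 115 with JQ1. Its log2 change was -1.33 (SE 0.25, edgeR adjusted p = 2.4e-06), and the groups did not overlap. The end of PLK1 overlaps ERN2 on the other strand, and ERN2 itself had no labelled count in any library and 0 to 3 total counts. BIRC5, or survivin, a subunit of the chromosomal passenger complex, had 94 and 106 counts in DMSO and 46 and 60 with JQ1, a log2 change of -1.13 (SE 0.32, edgeR adjusted p = 0.0032). AURKA, the spindle pole Aurora kinase, had 65 and 75 and then 41 and 32 (log2 -1.16, SE 0.38, edgeR adjusted p = 0.013). AURKB, the catalytic subunit of the same passenger complex as survivin, did not pass, with 33 and 32 counts in DMSO and 56 and 36 with JQ1. CDCA8 (borealin), a further passenger subunit, had 36 and 48 and then 55 and 66, and NEK2, a centrosome kinase, 31 and 23 and then 30 and 33. INCENP, the scaffold, was too sparse to judge, with 10 and 12 against 1 and 8.

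The next calls were in 3 of 8 kinesin motors, 2 of 7 tested spindle and midzone genes and 1 of 2 cytokinesis genes. Over all genes 28.6% were lower, and a difference between roles was not tested. KIF14, a kinesin that brings citron kinase to the midbody, had 45 and 43 labelled counts in DMSO and 5 and 9 with JQ1, or 13.8% after scaling (log2 -2.87, SE 0.61, edgeR adjusted p = 5e-05). PRC1, which bundles antiparallel microtubules at the midzone, had 64 and 99 and then 31 and 21 (log2 -1.88, SE 0.39, edgeR adjusted p = 2.8e-05). KIF23, which binds RhoA regulators at that midzone, had 39 and 68 and then 24 and 21, a log2 change of -1.48. ECT2 had 31 and 27 and then 8 and 11, at -1.83. Each of these groups stood clear of DMSO. KIF20A, another midzone kinesin, had 21 and 18 against 8 and 1, at -2.34 (SE 0.84, edgeR adjusted p = 0.022). The gene lies at chr5:138178719-138187715 on the plus strand, and its last bases, from 138187648 on, overlap the end of CDC23 on the minus strand. CDC23 also fell with JQ1 (log2 -2.39, edgeR adjusted p = 0.00019), and the strand used in counting is not stated, so reads of this pair cannot be told apart. TPX2, which activates AURKA on the spindle, had 54 and 47 against 24 and 21, at -1.39.

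The last 3 calls were CCNB2, CENPA and BUB1B, kept in 5, 4 and 3 of 10 alternative settings of the analysis. TPX2 and KIF20A were no firmer than CCNB2, each kept in 5. CCNB2, the other mitotic B cyclin, had 21 and 37 labelled counts in DMSO and 12 and 9 with JQ1, at -1.69 (SE 0.62, edgeR adjusted p = 0.027). CENPA, the centromeric histone H3 variant, had 35 and 28 against 22 and 5, at -1.45. BUB1B (BubR1), a checkpoint kinase homologue, had 10 and 44 in DMSO against 6 and 17 with JQ1. Its groups overlapped, its log2 change of -1.46 rested on DMSO replicate 2, and without that library it was 0.02. BUB1B also overlaps the readthrough gene BUB1B-PAK6, which had no labelled count.

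The main cyclin B kinase pair did not pass. CCNB1 had 71 and 57 labelled counts in DMSO and 48 and 34 with JQ1, a log2 change of -0.86 (SE 0.37, edgeR adjusted p = 0.063). CDK1 had 106 and 115 and then 121 and 92, at -0.28 (SE 0.28). The phosphatases CDC25B, with 8 and 12 against 11 and 0, and CDC25C, with 3 and 9 against 15 and 5, were too sparse to judge. Of the kinase-binding CKS proteins, CKS1B had 87 and 63 against 92 and 45, and it has 6 named pseudogenes. Also not called were TOP2A (topoisomerase II alpha), with 50 and 41 against 30 and 30, MKI67 (the Ki-67 antigen), with 29 and 18 against 27 and 8, and CENPF, a kinetochore protein, with 75 and 54 against 43 and 50. In normalised counts CCNB1, CDK1, TOP2A and CENPF each had both JQ1 libraries below both DMSO libraries, an order not set against all genes. The edgeR adjusted p of TOP2A was 0.14.

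The spindle checkpoint and kinetochore genes were sparse. BUB1, the kinase that recruits checkpoint proteins to kinetochores, had 8 and 9 labelled counts in DMSO and 7 and 4 with JQ1. MAD2L1 (MAD2), which inhibits CDC20, had 22 and 28 and then 21 and 15. BUB3, a partner of both BUB kinases, had 124 and 78 and then 69 and 93, and its groups overlapped. TTK (MPS1), the kinase at the top of the checkpoint, had 19 and 18 and then 17 and 3, KIF11 (Eg5, the bipolar spindle motor) 12 and 20 and then 26 and 17, and CENPE 7 and 13 and then 15 and 5. None of these 6 was called.

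Of the 47 tested members, 13 had a log2 change above 0 with JQ1, and none of them was called. The largest value was that of CKAP2, a spindle protein, with 11 and 23 labelled counts in DMSO and 39 and 39 with JQ1 (log2 0.97, SE 0.52, edgeR adjusted p = 0.14). CKS2 had 44 and 27 and then 85 and 64, at 0.85 (SE 0.40, edgeR adjusted p = 0.091). ARL6IP1 had 54 and 40 and then 113 and 79, at 0.81 (SE 0.35, edgeR adjusted p = 0.065), and it has 3 named pseudogenes. It shares its 3′ end with AC138811.2 on the same strand, which had 0 to 3 labelled and 463 to 995 total counts. HMMR, a spindle and hyaluronan-binding protein, had 24 and 25 and then 44 and 54, and CDC20 18 and 25 and then 38 and 33. PTTG1 had 53 and 80 and then 119 and 63. The order of JQ1 and DMSO libraries in these 6 was not set against all genes, so it is not read as a rise. Under A-485 these 6 had, in the same order, 34 and 32, 42 and 43, 63 and 55, 34 and 32, 25 and 30, and 78 and 101. ANLN, with 45 and 49 against 54 and 44, and KIF2C, a microtubule depolymerase with 92 and 98 against 79 and 121, stayed close to DMSO.

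The scale and single libraries decided many of these calls. With TMM in place of the spike-in, the median of all genes moved by 0.82 on the log2 scale. Then 1 member was lower, KIF14, and 8 were higher: ASPM, HMMR, CKS2, CDCA8, CKAP2, NUSAP1, PTTG1 and ARL6IP1. Of all genes, 5.19% were lower and 5.55% higher on that scale. With the spike-in, 7 members were called lower without DMSO replicate 1 and 3 without DMSO replicate 2, while genes called lower in all fell from 2286 to 1143 and 1049.

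**Figure D3:**
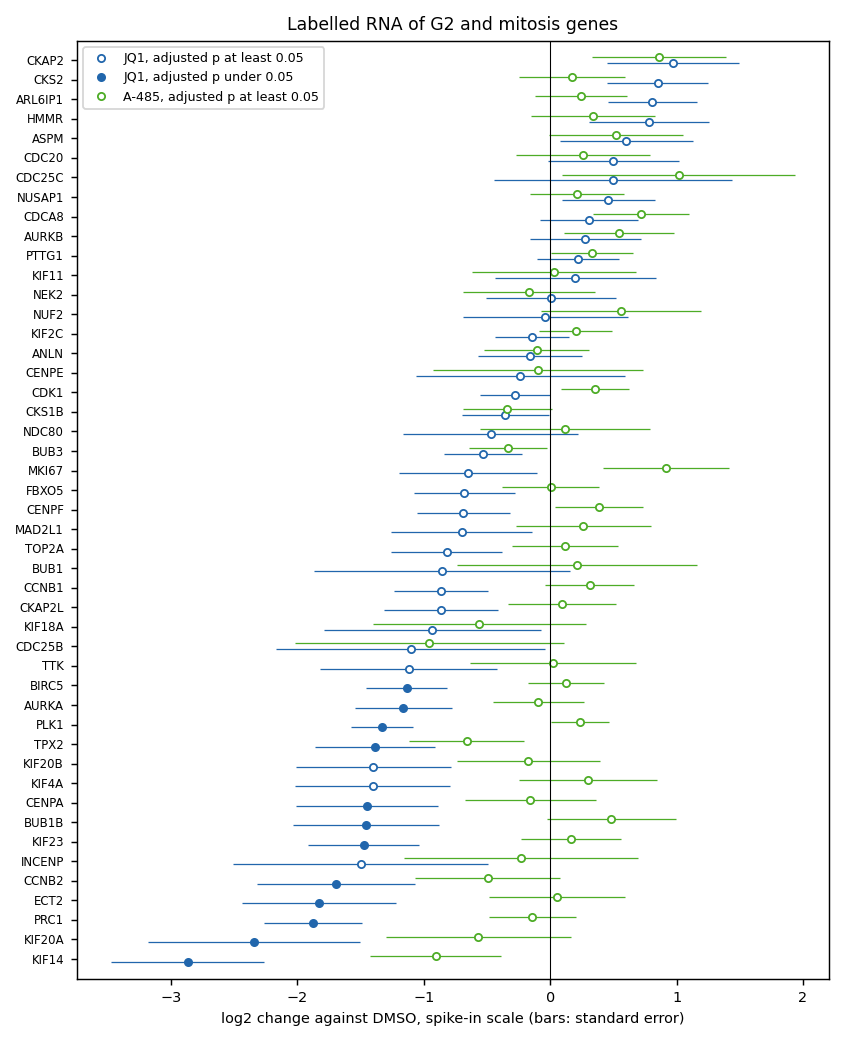
Log2 change in labelled RNA against DMSO on the spike-in scale of the 47 tested members with JQ1 (blue) and A-485 (green), in order of the JQ1 value, with bars for the SE and filled points for an adjusted p under 0.05. The JQ1 values run from -2.87 for KIF14 to 0.97 for CKAP2, 12 points are filled, and no A-485 point is.

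A-485 inhibits the acetyltransferases CBP and p300. The members' summed labelled RNA with it was 1168 and 1252 normalised counts, 109% of the DMSO mean and above both DMSO libraries, while all nuclear genes kept 91.6%. None of the 47 tested members was called in either direction by edgeR, none had an unadjusted p under 0.05 in either direction, and DESeq2 called 0. Over all genes, edgeR called 4.86% lower and 0.163% higher, and with TMM, again without a member, 4.18% and 0.325%. The members' median log2 change was 0.12 against -0.09 for all genes, and 31 of 47 (66.0%) were above 0 against 44.1% of all genes. PLK1 had 257 and 263 labelled counts with A-485 (183 and 230 in DMSO), CDK1 161 and 140 (106 and 115) and CCNB1 75 and 94 (71 and 57). None of these 3 passed the test. MKI67 had 49 and 45 (29 and 18), at a log2 change of 0.91 (SE 0.50, edgeR adjusted p = 0.45). AURKB had 42 and 59 (33 and 32), BIRC5 103 and 129 (94 and 106) and AURKA 62 and 78 (65 and 75). CENPF, at 68 and 111 (75 and 54), PTTG1, at 78 and 101 (53 and 80), and the cyclin CCNB2, at 26 and 18 (21 and 37), overlapped DMSO. The lowest values were those of CDC25B, at -0.96 on 8 and 3 counts against 8 and 12, and KIF14, at -0.91 on 28 and 22 against 45 and 43 (SE 0.52, edgeR adjusted p = 0.48). TPX2 had 36 and 32 against 54 and 47, at -0.66 (SE 0.45), CKS1B 73 and 53 against 87 and 63, at -0.34, and BUB3 94 and 76 against 124 and 78, at -0.33. The checkpoint genes BUB1 (10 and 11), BUB1B (50 and 31), MAD2L1 (33 and 31) and TTK (15 and 25) and the anaphase activator CDC20 (25 and 30) were not called. Nor were KIF11 (12 and 23), KIF20A (9 and 19), CENPE (12 and 8), TOP2A (47 and 58), ANLN (43 and 50), HMMR (34 and 32) or CDC25C (14 and 12). The SE of a single member ran from 0.23 for PLK1 to 1.06 for CDC25B, and changes as large as those of MKI67 and KIF14 did not pass the test at these depths.

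JQ1 and A-485 were compared directly in labelled RNA. With A-485, 12 of 47 members (25.5%) were higher than with JQ1 and none was lower, against 24.8% higher and 3.14% lower over all genes. DESeq2 also called 12 and 0, and neither tool gave a lower member an unadjusted p under 0.05. PLK1 had the firmest difference, 257 and 263 labelled counts with A-485 against 76 and 115 with JQ1 (log2 1.57, SE 0.24, edgeR adjusted p = 1e-08). PRC1 differed by 1.74 with 81 and 77 against 31 and 21, BIRC5 by 1.26 with 103 and 129 against 46 and 60, and KIF23 by 1.64 with 54 and 74 against 24 and 21. KIF14 (1.96), BUB1B (1.94), ECT2 (1.88), KIF4A (1.71), MKI67 (1.56), CCNB1 (1.18), CENPF (1.07) and AURKA (1.07) were the others called. Each of these 12 had both A-485 libraries above both JQ1 libraries in normalised counts, an order that was not set against all genes. CKS2, with 42 and 43 against 85 and 64 (log2 -0.68), and ARL6IP1, with 63 and 55 against 113 and 79 (-0.57), had the lowest values and were not called. Among members with a mean of at least 50 labelled counts over the DMSO libraries, CKS1B (0.02), PTTG1 (0.11) and BUB3 (0.20) differed least. With TMM, whose median over all genes differed by -0.70, PLK1 was the 1 member higher, and CKS2, NUSAP1 and ARL6IP1 were lower, against 5.43% and 8.42% of all genes. Fewer members, and fewer of all genes, were called higher when an A-485 library was left out. The members' median log2 difference was 0.73 without A-485 replicate 1 and 0.68 without replicate 2, against 0.73 and 0.64 for all genes.

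The test of the labelled share sets labelled counts against each gene's own unlabelled counts in the same library, so it needs no spike-in. With JQ1, 6 of 47 members (12.8%) had a lower share and none a higher one (1 at an unadjusted edgeR p under 0.05), against 15.4% lower and 0.364% higher of the 7960 genes tested. KIF14 fell by 2.80 on the log2 scale (SE 0.64, edgeR adjusted p = 0.001), PLK1 by 1.35 (SE 0.28, edgeR adjusted p = 0.00026), PRC1 by 1.58, KIF20A by 2.43, CCNB2 by 1.51 and TPX2 by 1.20. At the other end and not called were HMMR, with a mean share of 11.1% against 5.36% in DMSO, and, as log2 changes, CKS2 at 1.01 (SE 0.57) and CKAP2 at 0.84 (SE 0.62). Fewer members, and fewer of all genes, were called lower when DMSO replicate 1, DMSO replicate 2 or JQ1 replicate 2 was left out. With A-485 no member was called by edgeR, and none had an unadjusted p under 0.05, against 2.64% lower and 0.0251% higher of all genes. Its values ran from -0.87 for CDC25B to 1.00 for MKI67. DESeq2 was not run on the share.

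In total RNA most members were not called. Relative to DMSO, the members' summed total RNA came to 99.7% for A-485, 96.1% for AZ-5576, 93.4% for JQ1 and 93.1% for actinomycin D. Under actinomycin D, 11 of 49 members (22.4%) were lower and none higher, against 19.7% lower and 0.336% higher of the 14572 genes tested. Under AZ-5576, 6 of 49 (12.2%) were lower and none higher, against 12.9% and 0.782%. DESeq2 called 9 and 6 lower and none higher, and with neither tool did a member have an unadjusted p under 0.05 on the higher side. The median log2 change of the members was -0.19 under actinomycin D and -0.11 under AZ-5576, against -0.27 and -0.15 for all genes.

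FBXO5 ran down most. It had 106 and 95.7 normalised total counts in DMSO, 32.8 and 23.9 under actinomycin D and 35.0 and 25.2 under AZ-5576. Its log2 change was -1.84 (SE 0.25, edgeR adjusted p = 4.6e-07) and -1.75 (SE 0.25, edgeR adjusted p = 1.5e-06). With JQ1 it had 89.9 and 66.7 and with A-485 99.5 and 86.2, neither called. KIF18A had 32.71 and 48.96 in DMSO, 19.4 and 15.6 under actinomycin D and 18.1 and 20.9 under AZ-5576, at -1.22 and -1.06. For both genes every library of these 2 drugs lay below both DMSO libraries.

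AURKA was the abundant member that fell most surely. Its total RNA was 1059 and 1242 normalised counts in DMSO, 784 and 813 under actinomycin D, 696 and 822 under AZ-5576. JQ1 libraries had 857 and 855, and A-485 libraries 1020 and 1032. In this order of drugs the log2 changes were -0.53 (SE 0.11, edgeR adjusted p = 0.00043), -0.60 (SE 0.11, edgeR adjusted p = 9.4e-05), -0.43 (SE 0.11, edgeR adjusted p = 0.0095) and, not called, -0.17. It was the 1 member of 49 called in total RNA with JQ1, where 7.35% of all genes were lower and 0.837% higher. It has 2 named pseudogenes.

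Other members called with both actinomycin D and AZ-5576 were TTK, KIF11 and CKS2. TTK had 147 and 166 normalised counts in DMSO, 112 and 81.3 under actinomycin D and 91.4 and 118 under AZ-5576. KIF11 had 139 and 176, then 99.3 and 107, then 101 and 106. CKS2 had 190 and 193, then 140 and 141, then 127 and 117. All of these libraries lay below DMSO. The call of CKS2 under actinomycin D was kept in 1 of the 10 alternative settings, against 7 each for TTK and KIF11. Under AZ-5576 it was kept in 9, and those of TTK and KIF11 in 6 each. Under actinomycin D alone, KIF23 (log2 -0.73), ECT2 (-0.62), DLGAP5 (-0.54), ANLN (-0.46) and CKAP2L, a spindle protein (-0.43), were also called. Under AZ-5576 these 5 had -0.45, -0.25, -0.16, -0.25 and -0.35, not called. The direct comparison of AZ-5576 with actinomycin D in total RNA called none of the 49 members by edgeR or DESeq2, with 3 higher and 0 lower at an unadjusted edgeR p under 0.05 (1 and 0 by DESeq2), against 2.00% higher and 0.371% lower of all genes. With TMM none was called, against 1.28% higher and 0.522% lower. Among members with a mean of at least 50 counts in DMSO, the values ran from -0.21 (CKS2), -0.19 (CDC25B) and -0.09 (BUB1) to 0.38 (DLGAP5), 0.40 (NDC80) and 0.41 (ASPM). A difference between these drugs was therefore not shown for any member.

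The other 38 members were not called under actinomycin D, and the abundant ones among them lay near their DMSO level after 2 h. CDC20 had 2859 and 3361 normalised counts in DMSO, 3194 and 3186 under actinomycin D and 3025 and 3240 under AZ-5576. PLK1 had 5460 and 7097, then 5880 and 6309, then 5910 and 7047. CKS1B had 3318 and 3526, then 3238 and 3604, then 3323 and 3540. For these 3 the groups overlapped. CCNB1 had 803 and 843 in DMSO, 775 and 809 under actinomycin D and 747 and 803 under AZ-5576. CCNB2 had 709 and 894, then 683 and 715, then 707 and 803. CDK1 had 1207 and 1425, then 1169 and 1058, then 1144 and 1172, below DMSO in all 4 libraries but not called (log2 -0.24 and -0.18). AURKB, PTTG1, BIRC5, TOP2A, TPX2, BUB1, CDC25B and KIF20A had log2 changes between -0.16 and 0.11 with both drugs. Over the 10 libraries AURKB ran from 1058 to 1321 normalised counts, PTTG1 from 2682 to 3801, BIRC5 from 1260 to 1587, TOP2A from 1182 to 1424, TPX2 from 1423 to 1736 and KIF20A from 172 to 223. The highest values under AZ-5576 among well counted members were those of ASPM (0.16), CENPE (0.14) and CENPA (0.12), and under actinomycin D those of CDC20 (0.04), CDC25B (0.03) and BIRC5 (0.01). The checkpoint and kinetochore genes other than TTK ran from -0.48 (NDC80 under actinomycin D, edgeR adjusted p = 0.16) to 0.14 (CENPE under AZ-5576), and none of those was called. Among them BUB1 ran from 131 to 175 normalised counts over all libraries, BUB1B from 261 to 343, BUB3 from 1269 to 1638, CENPE from 84.1 to 124 and CENPF from 565 to 782. MKI67 ran from 355 to 438, CDC25B from 221 to 351 and CDC25C from 226 to 359.

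**Figure D4:**
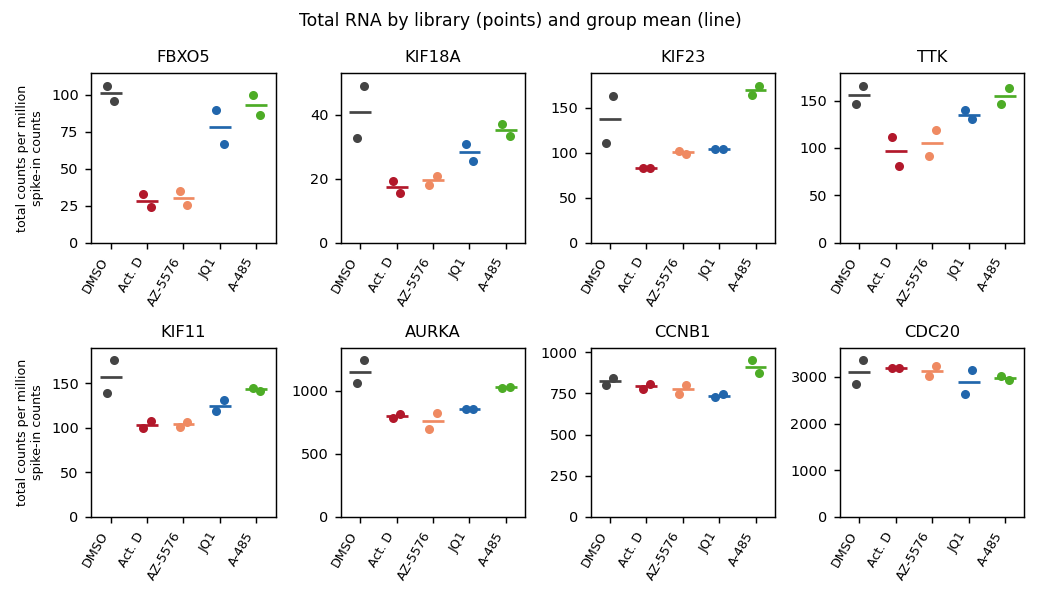
Normalised total counts (scaled to 1000000 spike-in counts) of 8 members in each library (points), with the mean of each group of 2 (lines), each panel starting at 0. FBXO5 goes from 106 and 95.7 in DMSO to 32.8 and 23.9 under actinomycin D, while CDC20 lies between 2637 and 3361 in all 10 libraries.

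The extent of the run-down tracked the labelled share across members. With the share taken from DMSO replicate 1 and the change in total RNA taken against DMSO replicate 2, Spearman's rho over 48 members was -0.60 for actinomycin D, and with the libraries exchanged it was -0.65. For AZ-5576 the values were -0.46 and -0.31. Over all 10409 genes they were -0.58 and -0.55, and -0.53 and -0.49. The points share libraries and depth, genes are not independent replicates, and no test was made.

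With JQ1, total RNA of the members had a median log2 change of -0.17, against -0.19 for all genes. PRC1 had 646 and 764 normalised counts in DMSO and 585 and 531 with JQ1 (log2 -0.34, edgeR adjusted p = 0.062), and MAD2L1 399 and 489 and then 357 and 349 (-0.33, edgeR adjusted p = 0.087). KIF14, whose labelled RNA was lowest relative to DMSO, had 253 and 242 and then 220 and 212, not called. ARL6IP1 had 303 and 394 and then 407 and 337, and HMMR 242 and 251 and then 187 and 222. Among members with a mean of at least 50 counts in DMSO the values ran from -0.53 (KIF18A) and -0.41 (DLGAP5) to 0.15 (CDC25C) and 0.25 (CKAP2). With A-485, no member was called in total RNA by edgeR or DESeq2, and 1 was higher and 0 lower at an unadjusted p under 0.05 by each. Over all genes, 1.20% were lower and 0.0343% higher, and with TMM, again without a member, 1.04% and 0.0892%. The lowest among well counted members were KIF14 (-0.24), KIF18A (-0.21) and TPX2 (-0.19), and the highest ASPM (0.38), KIF23 (0.30) and INCENP (0.24).

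Without DMSO replicate 2, the library with the highest member sum, the changes of all genes in total RNA also shrank. Their median log2 change moved from -0.27 to -0.19 under actinomycin D, from -0.15 to -0.07 under AZ-5576 and from -0.19 to -0.12 with JQ1. Fewer genes in all were called, and fewer members were. The count was then 2 under actinomycin D, 3 under AZ-5576 and 0 with JQ1. Leaving out other libraries gave 7 without actinomycin D replicate 1, 4 without actinomycin D replicate 2 and 3 without AZ-5576 replicate 1. For JQ1 the count was 4 without DMSO replicate 1 and 2 without either JQ1 library. AURKA and FBXO5 were called under actinomycin D and under AZ-5576 under each of the 10 alternative settings. On the TMM scale, which moved the median of all genes by 0.25, 0.15 and 0.20, actinomycin D gave 3 lower (AURKA, FBXO5 and KIF18A) and 4 higher (BIRC5, CDC20, TOP2A and CKS1B), against 7.91% and 5.43% of all genes. AZ-5576 gave 3 lower (AURKA, FBXO5 and CKS2) and 1 higher (TOP2A), against 8.30% and 3.75%. JQ1 gave 0 lower and 1 higher (NUSAP1), against 1.98% and 1.47%.

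**Figure D5:**
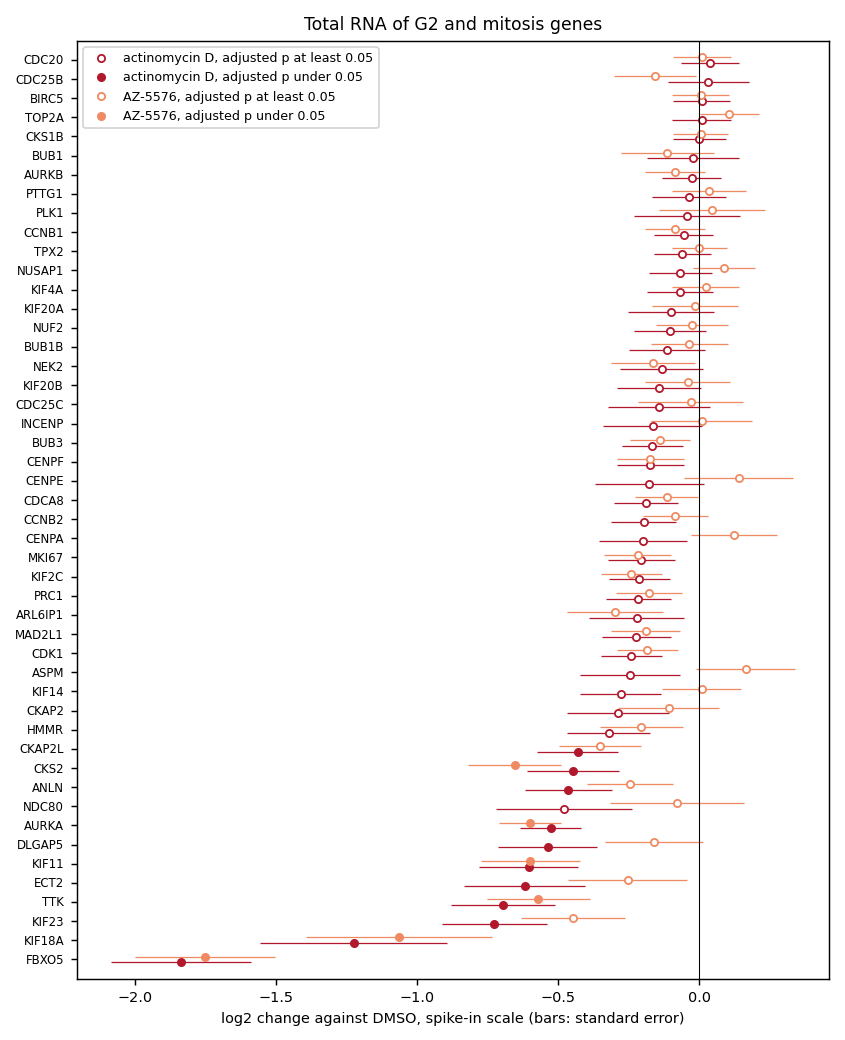
Log2 change in total RNA against DMSO on the spike-in scale of 48 members (UBE2C is not drawn) under actinomycin D (red) and AZ-5576 (orange), in order of the actinomycin D value, with bars for the SE and filled points for an adjusted p under 0.05. FBXO5 and KIF18A lie lowest with both drugs, and CDC20 and CDC25B lie at the top of the order.

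Other genes of the same pathway were followed in 6 lists with 103 genes: the anaphase-promoting complex, condensin, cohesin and its regulators, transcriptional regulators of the programme, entry kinases and phosphatases, and further kinetochore and spindle genes. In labelled RNA 90 were tested. With JQ1, 29 of them were lower (32.2%, against 28.6% of all genes) and none higher. Cohesin and its regulators had 7 of 13 lower, the anaphase-promoting complex 5 of 15, entry kinases and phosphatases 5 of 12, transcriptional regulators 3 of 10, other kinetochore and spindle genes 8 of 32 and condensin 1 of 8. ARPP19, an inhibitor of the phosphatase that opposes CDK1, had 84 and 84 labelled counts in DMSO and 22 and 31 with JQ1 (log2 -1.88, edgeR adjusted p = 2.5e-05). STAG2, a cohesin subunit, had 110 and 97 and then 36 and 43, at -1.61. TFDP1, the dimer partner of E2F proteins, had 48 and 84 and then 18 and 24, at -1.88. With A-485 none of the 90 was called by edgeR in labelled RNA, where 2 lower and 0 higher had an unadjusted p under 0.05. Higher with A-485 than with JQ1 were 23 (25.6%, against 24.8% of all genes), among them CDC23, ARPP19, PPP2R2A and CCNF. In the labelled share 11 of 90 were lower with JQ1 (12.2%, against 15.4% of all genes) and none higher. With A-485 the share of 1 gene was lower and of 0 higher (1.11% lower, against 2.64% of all genes). That gene was CENPH, with 18 and 13 labelled counts in DMSO and 2 and 4 with A-485 (edgeR adjusted p = 0.042).

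In total RNA 102 of these genes were tested. Under actinomycin D 28 were lower (27.5%, against 19.7% of all genes). Under AZ-5576 16 were (15.7%, against 12.9%), and with JQ1 8 were (7.84%, against 7.35%). A-485 gave no lower gene, and none was higher with any of the 4, at an adjusted or unadjusted edgeR p under 0.05. With A-485 3 were lower at an unadjusted p under 0.05. HJURP, the chaperone of CENPA, fell by 1.05 on the log2 scale under actinomycin D and by 1.13 under AZ-5576. WEE1, the kinase that holds CDK1 inactive before mitosis, fell by 1.01 and 0.90 and by 0.72 with JQ1. SGO1 (shugoshin), which protects centromeric cohesin, fell by 0.73 under AZ-5576 and by 0.60 with JQ1. UBE2S, the chain-elongating enzyme of the anaphase-promoting complex, fell by 0.76 under actinomycin D, and HASPIN, the histone H3 kinase of centromeres, by 3.09 under AZ-5576 on 40 and 57 total counts in DMSO and 4 and 8 with the drug.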

How the data were processed

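Counts of 10 SLAM-seq libraries from K562 cells, 2 in each of 5 groups named by the sample titles, were read from 3 tables. The values are raw counts per gene of total human reads, of human reads with T-to-C conversions and of Drosophila spike-in reads, as deposited and not normalised, per the file headers. Iodoacetamide treatment preceded the addition of 5% S2 RNA and QuantSeq 3′ library preparation, per the labels' protocols. The submitters' processing notes name bedtools, Trim Galore 0.6.5 and bcl2fastq 2.17.1.14, and the builds dm6 and hg38. Which aligner, conversion caller, counting strand and read filters were used was not given in the sources used here.

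Labelled and total RNA of all 4 drugs were compared with DMSO, the labelled share for JQ1 and A-485, labelled RNA between those 2, and total RNA between AZ-5576 and actinomycin D. The two-sided quasi-likelihood test of edgeR 4.0.16 (R 4.3.3, robust) was run on all 10 libraries, taking the spike-in total as the library size. Genes needed at least 10 counts in at least 2 libraries, which left 14572 for total RNA, 7996 for labelled RNA and 7960 for their ratio. A gene was called at a Benjamini-Hochberg adjusted p under 0.05 over all genes tested. The common biological coefficient of variation came to 10.9% for total RNA, 24.8% for labelled RNA and 17.8% for the ratio, each with 5 residual degrees of freedom. The ratio was tested as a drug effect on labelled against unlabelled counts within libraries. A group with no counts was given a ceiling of 3 counts over the group, which covers counting error only. Gene positions are those of GENCODE 29 on hg38.

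Alternatives were TMM, size factors over spike-in genes, no filter, a fit on the groups compared alone, DESeq2 1.42.0, the replicate number as a block and each library left out. By rule, 30 members were named with their libraries' values, plus the members with the largest and smallest changes. Every member called outside the labelled comparisons of actinomycin D and AZ-5576 with DMSO was also named. From the other lists, only some of the called genes with the smallest adjusted p were named. The members and lists were chosen with earlier results of these data known.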

Additional observations from a re-analysis of the deposited data

How the results depend on the processing

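Of 48 member calls outside the labelled comparisons of actinomycin D and AZ-5576 with DMSO, 8 were made under every alternative: AURKA and FBXO5 in total RNA with actinomycin D and with AZ-5576, KIF14 in labelled RNA and in the share with JQ1, and PLK1 in the share with JQ1 and in labelled RNA of A-485 against JQ1. The result that reversed was BUB1B in labelled RNA with JQ1, whose log2 change ran from -2.44 without JQ1 replicate 2 to 0.020 without DMSO replicate 2. TMM, whose construction removes a shift common to most genes, moved the counts most. In labelled RNA it gave 2 lower and 1 higher for actinomycin D, 17 lower for AZ-5576, 1 lower and 8 higher for JQ1, and 3 lower and 1 higher for A-485 against JQ1. In total RNA it gave 3 lower and 4 higher for actinomycin D, 3 and 1 for AZ-5576, and 0 and 1 for JQ1. A fit on the DMSO and JQ1 libraries alone gave 2 higher in labelled RNA, CKS2 and ARL6IP1.

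With each library left out in turn, members called lower ran from 3 to 9 in labelled RNA with JQ1, from 2 to 6 in the share with JQ1, from 2 to 11 in total RNA with actinomycin D, from 3 to 6 with AZ-5576 and from 0 to 4 with JQ1. Members called higher with A-485 than with JQ1 ran from 5 to 9. In each of these fits fewer of all genes were called in the direction given. A group then has 1 library, which is assumed to vary like the others. Replicate numbers did not pair the libraries: same-numbered deviations correlated at -0.014 to 0.022 in labelled RNA and -0.012 to 0.14 in total RNA. With the replicate block, total RNA with JQ1 gave 4 members lower in place of 1, and no other count moved by over 1.5 times. Labelled counts of single members are low, which limits what labelled RNA can show.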
